A study of Homo sapiens with 6 samples.

Results

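The genes described here are 32 genes of the endoplasmic reticulum (ER) that encode its stress sensors, its protein-folding chaperones and the factors that remove misfolded protein from it. They were taken by name from a gene count table of 58735 entries, and all 32 were found in it and passed the filter on low counts that left 16081 genes for testing. The 6 libraries came from MDA-MB-231, a human triple-negative breast cancer cell line. Cells were exposed for 72 h either to Azeliragon at 2 µM (3 libraries, a, b and c) or to DMSO, its solvent control (3 libraries, a, b and c). Azeliragon is a small-molecule antagonist of RAGE, a receptor that binds advanced glycation end products. The study examined RAGE signalling and epithelial-mesenchymal plasticity in this cell type. All libraries therefore share 1 cell line, 1 time and, for the treated cells, 1 dose. The labels do not state whether the lettered libraries were separate cultures, so the p-values rest on a spread between libraries that could be technical alone.

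The ER folds secreted and membrane proteins with the help of Hsp70- and Hsp90-type chaperones, lectin chaperones that bind N-glycans, and protein disulfide isomerases. When misfolded protein accumulates, the membrane sensors ATF6, IRE1 (encoded by ERN1) and PERK (encoded by EIF2AK3) start the unfolded protein response. ATF6 and the spliced form of XBP1 then raise transcription of chaperone and ER-associated degradation genes, partly through ER stress response elements (ERSE and ERSE-II) in their promoters. Secretory and cancer cells are known to depend on this capacity.

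Library totals ranged from 41455979 to 43772671 counts with Azeliragon and from 43091452 to 44313584 counts with DMSO. Levels below are CPM, counts scaled to library size, after TMM normalisation. The mesenchymal markers of the line were high, with VIM at 1803 to 1887 CPM with Azeliragon and 1745 to 2189 CPM with DMSO, and CD44 at 602 to 611 CPM with Azeliragon and 574 to 596 CPM with DMSO. Of 4 epithelial or receptor genes, CDH1 had 1 read over the 6 libraries together, PGR had 0 and ESR1 did not exceed 0.338 CPM. EPCAM was detected at 7.38 to 8.68 CPM with Azeliragon and 8.15 to 9.43 CPM with DMSO. Summed over 4 genes, leukocyte markers were at 0.115 to 0.302 CPM with Azeliragon and 0.0886 to 0.255 CPM with DMSO. Summed over 3 genes, endothelial markers were at 0.605 to 0.844 CPM with Azeliragon and 0.324 to 0.649 CPM with DMSO. The DMSO libraries varied more among themselves (biological coefficient of variation 12.5%) than the Azeliragon libraries (5.64%). On the first principal component, which held 36.8% of the variance, the Azeliragon libraries lay at -22.7, -20.1 and -24.2, DMSO b and c at 32.2 and 35.7, and DMSO a at -0.94. DMSO a thus stood apart from the other DMSO libraries, and results are given with and without it.

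Promoter sequences are shown first because ATF6 and XBP1 are known to act through such elements at several ER chaperone genes. RefSeq windows on GRCh38.p14, from 250 bases before to 50 bases after each transcription start, were matched for 29 of the 32 genes, as 36 windows. They were searched on both strands for ERSE, written here as CCAAT, 9 bases of any kind and CCACG, and for ERSE-II, ATTGG, 1 base and CCACG. The first sequence is the 250 bases before the start of HSPA5, the gene of the major ER Hsp70 (minus strand, chr9:125241344-125241593), and capitals mark its element.
HSPA5: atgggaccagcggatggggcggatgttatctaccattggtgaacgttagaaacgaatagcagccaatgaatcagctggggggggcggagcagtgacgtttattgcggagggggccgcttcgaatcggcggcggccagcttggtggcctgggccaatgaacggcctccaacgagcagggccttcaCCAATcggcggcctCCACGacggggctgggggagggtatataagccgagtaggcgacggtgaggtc

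Shorter stretches show the same kind of element in other members, again with the fixed letters in capitals. XBP1 (chr22:28800588-28800636, minus strand) and CALR (chr19:12938369-12938417, plus strand) hold ERSE, the CALR copy in reverse orientation. HERPUD1 (chr16:56932010-56932050, plus strand) and SDF2L1 (chr22:21642099-21642139, plus strand) hold ERSE-II, the SDF2L1 copy in reverse orientation.
XBP1: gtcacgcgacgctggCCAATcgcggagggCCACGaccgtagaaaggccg
CALR: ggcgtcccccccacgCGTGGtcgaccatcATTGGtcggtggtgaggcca
HERPUD1: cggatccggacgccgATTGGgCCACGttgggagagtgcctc
SDF2L1: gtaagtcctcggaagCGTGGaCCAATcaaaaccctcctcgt

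The ERSE copies of HSP90B1, CRELD2, PDIA6 and CANX are given as the element alone, each on the strand of its gene. HSP90B1 holds a pair of copies in opposite orientations (chr12:103930216-103930234 and chr12:103930321-103930339). The others lie at chr22:49918554-49918572 for CRELD2, chr2:10812853-10812871 for PDIA6 and chr5:179698778-179698796 for CANX.
HSP90B1 distal: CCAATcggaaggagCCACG
HSP90B1 proximal: CGTGGtgcggcgcgATTGG
CRELD2: CGTGGcgaactcggATTGG
PDIA6: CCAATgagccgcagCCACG
CANX: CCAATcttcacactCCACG

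ERSE was found for 7 of the 29 genes (24.1%), against 25 of 27305 genes in the whole RefSeq table (0.0916%). ERSE-II was found for 3 members (10.3%), HYOU1, SDF2L1 and HERPUD1, against 19 genes of the table (0.0696%). Either element was present for 10 members (34.5%), against 44 genes of the table (0.161%), so that 34 genes outside the list hold one. The XBP1-type core TGACGTGG was found for 1 member, HYOU1, where it overlaps the more distal ERSE-II copy, and for 253 genes of the table (0.927%). The parts of these elements alone are common: CCAAT occurred in 28 of the 36 member windows (77.8%) against 34.6% of all 35116 windows, and CCACG in 26 (72.2%) against 38.1%. The elements were searched because they are known at several ER chaperone genes, so their larger share among the members is not an independent result. A match of letters is a description and does not show binding.

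**Figure D1:**
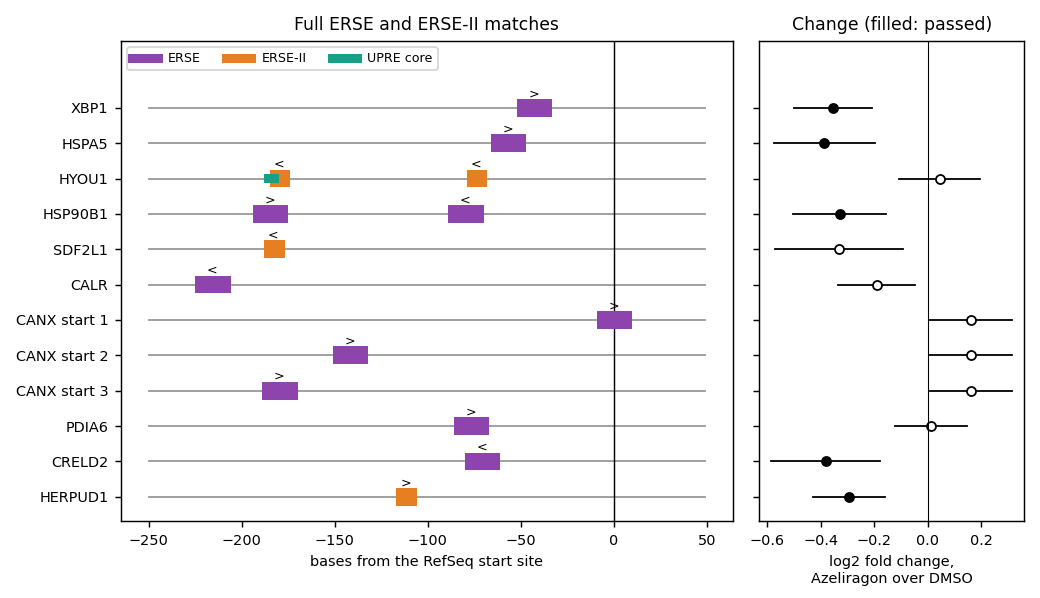
Position of ERSE and ERSE-II matches in the RefSeq promoter windows of the 10 members that hold one, in bases relative to the transcription start (left, one window per row, 3 start sites for CANX, arrows for orientation), beside the log2 fold change of Azeliragon over DMSO with its 95% interval (right, filled where called). The HSPA5, XBP1, PDIA6 and CRELD2 copies lie within 100 bases before the start, and HYOU1 and HSP90B1 each hold a pair.

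Across the 32 genes, 7 were lower with Azeliragon at an adjusted p under 0.05 (21.9%), 0 were higher and 25 were not called (edgeR quasi-likelihood test, Benjamini-Hochberg adjustment over all 16081 genes). The same fit called 3.53% of all tested genes lower and 2.75% higher. The 32 genes were chosen with earlier results of these data known, so these shares are set side by side as a description only. The 7 genes were the transcription factor XBP1, the chaperones HSPA5 and HSP90B1, the disulfide isomerases PDIA3 and PDIA4, the ER-stress-inducible CRELD2, and the degradation factor HERPUD1. Their fitted levels were 17.4% to 23.5% lower with Azeliragon, that is 1.21- to 1.31-fold. DESeq2 and limma-voom each called 7 lower and 0 higher as well. At an unadjusted p under 0.05, 9 members were lower and 2 higher (CANX and ERN1) with each of the 3 tools. The median log2 fold change of the 32 genes was -0.08, against -0.00 over all tested genes, and 20 of the 32 lay below 0, against 50.9% of all genes. A list of 3 fibroblast markers (PDGFRB, DCN and LUM) summed, without overlap, to 6.05 to 7.34 CPM with Azeliragon against 9.73 to 11.9 CPM with DMSO. Most of that sum was PDGFRB, at 5.51 to 6.26 CPM with Azeliragon against 9.06 to 11.3 CPM with DMSO. DCN had 0 reads with Azeliragon and 3 with DMSO. LUM did not separate the groups, at 0.535 to 1.08 CPM with Azeliragon against 0.598 to 0.672 CPM with DMSO. The part of this list in the members' differences was not tested.

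**Figure D2:**
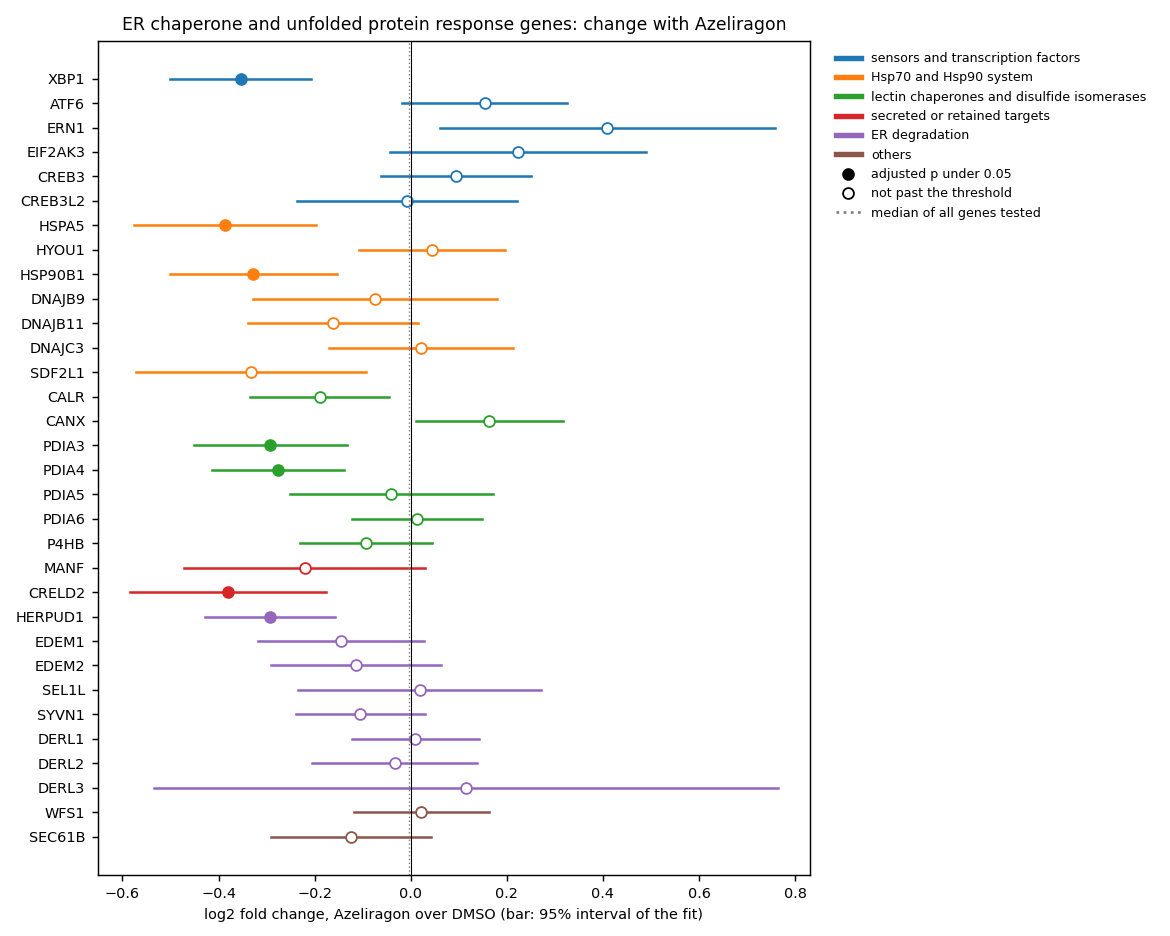
Log2 fold change of Azeliragon over DMSO for the 32 genes (x axis), grouped by role, with bars for the 95% confidence interval of the edgeR fit on 3 libraries per group. The 7 called genes lie between -0.39 and -0.28, and the widest interval is that of DERL3.

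The calls depended on single libraries. Each of the 7 genes was below 0 in every set of 5 libraries, but none was called in all 6 such sets. Leaving out Azeliragon a left 1 member called lower (HSPA5), Azeliragon b 1 (XBP1), Azeliragon c 0, DMSO b 1 (XBP1) and DMSO c 5. In these fits 1.63%, 1.88%, 1.74%, 1.93% and 2.82% of all tested genes were called lower, in the same order. Without DMSO a, 12 members were lower and 5 higher, while 10.8% and 12.9% of all genes were called lower and higher in that fit. Values given below without DMSO a come from it, and their adjusted p stand against these shares. With a trend on transcript length and GC content removed per library, 8 members were lower (the 7 and EDEM1) and 1 was higher (CREB3). In that fit 5.22% of all genes were called lower and 6.35% higher. DMSO a was the lowest DMSO library for all 7 called genes, 12 of the 25 uncalled members and 37.3% of all tested genes. For the 7 called genes it lay between the mean of the Azeliragon libraries and the mean of DMSO b and c. The same position between the means was seen for 9 of the 25 uncalled members and for 33.3% of all tested genes. Whether the difference of DMSO a played a part in which members were called was not tested beyond these fits.

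Among the sensors and transcription factors, 1 of 6 genes was called. XBP1 encodes the transcription factor whose messenger RNA is spliced by IRE1, and the gene counts hold spliced and unspliced forms together. Its level was 70.3, 72.9 and 69.2 CPM in Azeliragon libraries a, b and c, against 85.6, 90.3 and 95.6 CPM in DMSO libraries a, b and c. Every Azeliragon library lay below every DMSO library, with DMSO c the highest. XBP1 (chr22:28794555-28800597, minus strand, in GENCODE 29 on GRCh38) averaged 70.8 ± 1.93 CPM with Azeliragon and 90.5 ± 4.97 CPM with DMSO (SD, n = 3 each). The log2 fold change was -0.35 (SE 0.07, 95% interval -0.50 to -0.21, edgeR adjusted p = 0.00768), the smallest adjusted p among the 32. The call was lost without Azeliragon a and without Azeliragon c, with an adjusted p of up to 0.0698, and without DMSO a the log2 fold change was -0.39.

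The 3 sensors themselves were not called. ERN1, which encodes IRE1, had 16.5, 15.3 and 18.7 CPM with Azeliragon, against 15.99, 9.38 and 12.7 CPM with DMSO, where DMSO a lay within the Azeliragon range. Its log2 fold change was 0.41 (SE 0.16, 95% interval 0.06 to 0.76), and it missed the threshold (edgeR adjusted p = 0.171). ATF6, the membrane-bound transcription factor, had 70.7, 70.2 and 72.1 CPM with Azeliragon, against 69.4, 65.1 and 56.9 CPM with DMSO. It was the 1 member whose Azeliragon libraries all lay above the DMSO libraries (12.1% of all tested genes were so placed), with a log2 fold change of 0.15 (SE 0.08) and an edgeR adjusted p of 0.302. EIF2AK3, which encodes the kinase PERK, had 13.7, 11.7 and 14.3 CPM with Azeliragon, against 12.9, 11.4 and 9.78 CPM with DMSO, and the groups overlapped. The fit without DMSO a called 12.9% of all tested genes higher. In it the log2 fold changes were 0.61 for ERN1, 0.22 for ATF6 and 0.33 for EIF2AK3, with edgeR adjusted p of 0.000493, 0.0153 and 0.0424. The smallest values were 0.23 for ERN1 without DMSO b, and 0.078 for ATF6 and 0.13 for EIF2AK3 without DMSO c, none of them called. CREB3 and CREB3L2 encode ER-membrane transcription factors of the ATF6 kind. Their log2 fold changes were 0.09 and -0.01, and CREB3L2 ranged from 109 to 117 CPM with Azeliragon and from 101 to 139 CPM with DMSO, DMSO a being the highest. Without DMSO a, CREB3L2 was at 0.15 and was called higher (edgeR adjusted p = 0.0432).

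Of the 7 Hsp70- and Hsp90-type chaperones and their cofactors, 2 were called lower and their median log2 fold change was -0.16. HSPA5 encodes BiP, the ER Hsp70 that also holds the sensors inactive. It had 1173, 1039 and 979 CPM in Azeliragon libraries a, b and c, against 1240.4, 1395 and 1534 CPM in DMSO libraries a, b and c. The groups did not overlap, and Azeliragon a and DMSO a were the nearest libraries. HSPA5 (chr9:125234853-125241330, minus strand) averaged 1064 ± 99.1 CPM with Azeliragon and 1389.8 ± 147 CPM with DMSO (SD, n = 3 each). The log2 fold change was -0.39 (SE 0.09, 95% interval -0.58 to -0.20, edgeR adjusted p = 0.0201), the largest in size among the 7. It was -0.46 without DMSO a. The call was lost without Azeliragon b, Azeliragon c or DMSO b, with an adjusted p of up to 0.148.

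HSP90B1 encodes GRP94, the ER Hsp90. It had 266, 247 and 249 CPM with Azeliragon, against 286, 357 and 314 CPM with DMSO. All 3 Azeliragon libraries lay below DMSO a, the lowest of the DMSO libraries. HSP90B1 (chr12:103930107-103953645, plus strand) averaged 254 ± 10.5 CPM with Azeliragon and 319 ± 35.6 CPM with DMSO (SD, n = 3 each). The log2 fold change was -0.33 (SE 0.08, 95% interval -0.50 to -0.15, edgeR adjusted p = 0.0306), and -0.40 without DMSO a. The call was lost without any 1 of the Azeliragon libraries or DMSO b, with an adjusted p of up to 0.174. Exons of HSP90B1 overlap those of C12orf73 and TTC41P on the opposite strand. The strand setting of the counting is not given in the sources used here, so its counts may include reads of these genes.

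The other chaperones of this group were not called. SDF2L1, a BiP-associated cofactor, had 40.9, 35.6 and 35.5 CPM with Azeliragon, against 38.8, 49.4 and 52.7 CPM with DMSO. DMSO a lay inside the Azeliragon range, and the log2 fold change of -0.33 (SE 0.11) had an edgeR adjusted p of 0.105, against 8.09e-05 and a log2 fold change of -0.45 without DMSO a. DNAJB11, a BiP co-chaperone, had 58.6, 58.6 and 56.2 CPM with Azeliragon, against 57.1, 68.7 and 68.2 CPM with DMSO. DMSO a again lay among the Azeliragon libraries, and the log2 fold change was -0.16 (SE 0.08, edgeR adjusted p = 0.291), or -0.24 without DMSO a (adjusted p = 0.00408). HYOU1, the large Hsp70-type chaperone GRP170, had a log2 fold change of 0.04 (95% interval -0.11 to 0.20) and carries a pair of ERSE-II copies. The co-chaperone genes DNAJB9 and DNAJC3 were at -0.07 and 0.02, with edgeR adjusted p of 0.773 and 0.924.

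Of the 7 lectin chaperones and disulfide isomerases, 2 were called lower and their median log2 fold change was -0.09. PDIA4 encodes the isomerase ERp72. It had 315, 293 and 303 CPM with Azeliragon, against 348, 369 and 386 CPM with DMSO. The groups did not overlap. PDIA4 (chr7:149003062-149028641, minus strand) averaged 304 ± 10.8 CPM with Azeliragon and 368 ± 18.98 CPM with DMSO (SD, n = 3 each), a log2 fold change of -0.28 (SE 0.06, 95% interval -0.41 to -0.14, edgeR adjusted p = 0.0219). The call was lost without any 1 of the Azeliragon libraries or DMSO b, with an adjusted p of up to 0.155. Neither ERSE form was found in its promoter window.

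PDIA3 encodes ERp57, the isomerase that works with the lectins calnexin and calreticulin on glycoproteins. It had 269, 261 and 248 CPM with Azeliragon, against 286, 332 and 334 CPM with DMSO. The groups did not overlap, and DMSO a lay nearest to the Azeliragon libraries. PDIA3 (chr15:43746392-43773279, plus strand) averaged 259 ± 10.9 CPM with Azeliragon and 317 ± 27.4 CPM with DMSO (SD, n = 3 each), a log2 fold change of -0.29 (SE 0.07, 95% interval -0.45 to -0.13, edgeR adjusted p = 0.0338). The value was -0.36 without DMSO a, and the call was lost without any other 1 library (adjusted p up to 0.211). Its exons overlap ELL3, CATSPER2P1 and AC018512.1 on the opposite strand, and 2 PDIA3 pseudogenes held 382 counts in all, so its counts may include reads of other genes.

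The lectins moved apart in sign, with neither called. CALR encodes calreticulin, the soluble lectin, and had 1156, 1107 and 1122 CPM with Azeliragon, against 1185, 1297 and 1379 CPM with DMSO. Its groups did not overlap, but the log2 fold change of -0.19 (SE 0.07, 95% interval -0.33 to -0.05) had an edgeR adjusted p of 0.125. CANX encodes calnexin, the membrane-bound lectin, and had 816, 740.0 and 720.2 CPM with Azeliragon, against 724, 668 and 639 CPM with DMSO. DMSO a lay just above Azeliragon c, and the log2 fold change of 0.16 (SE 0.07, 95% interval 0.01 to 0.32) had an edgeR adjusted p of 0.211. Without DMSO a both passed, CALR at -0.25 (adjusted p = 0.000188) and CANX at 0.21 (adjusted p = 0.003). The isomerase genes PDIA5, PDIA6 and P4HB had log2 fold changes of -0.04, 0.01 and -0.09, none called. For PDIA6, which carries an ERSE, the 95% interval was -0.12 to 0.15.

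CRELD2 and MANF encode small secretory-pathway proteins that are induced by ER stress. CRELD2 had 26.2, 25.1 and 22.3 CPM with Azeliragon, against 28.9, 33.2 and 33.7 CPM with DMSO. The groups did not overlap, with DMSO a the lowest of its group. CRELD2 (chr22:49918167-49927540, plus strand) averaged 24.5 ± 2.03 CPM with Azeliragon and 31.9 ± 2.65 CPM with DMSO (SD, n = 3 each), a log2 fold change of -0.38 (SE 0.09, 95% interval -0.58 to -0.18, edgeR adjusted p = 0.032). It was -0.45 without DMSO a, and the call was lost without any other 1 library (adjusted p up to 0.184). Its exons overlap ALG12 on the opposite strand. MANF had 85.4, 75.1 and 69.8 CPM with Azeliragon, against 73.1, 91.6 and 104 CPM with DMSO. DMSO a lay inside the Azeliragon range, and the log2 fold change was -0.22 (SE 0.12, edgeR adjusted p = 0.314), or -0.35 without DMSO a (adjusted p = 0.0007) and -0.10 without DMSO c.

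Of the 8 genes of ER-associated degradation, 1 was called lower and the median log2 fold change was -0.07. HERPUD1 encodes a membrane organiser of the ubiquitin ligase complex of this pathway. It had 122, 128 and 122 CPM with Azeliragon, against 146, 152 and 157 CPM with DMSO. The groups did not overlap, and DMSO a was again the lowest of its group. HERPUD1 (chr16:56932048-56944863, plus strand) averaged 124 ± 3.62 CPM with Azeliragon and 152 ± 5.77 CPM with DMSO (SD, n = 3 each), a log2 fold change of -0.29 (SE 0.06, 95% interval -0.43 to -0.16, edgeR adjusted p = 0.0141). The call was lost without any 1 of the Azeliragon libraries or DMSO b, with an adjusted p of up to 0.119.

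The partners of HERPUD1 in that complex were not called. SYVN1, the ubiquitin ligase HRD1, had 93.4, 94.2 and 99.6 CPM with Azeliragon, against 104, 101 and 104 CPM with DMSO, without overlap, but its log2 fold change of -0.10 had an edgeR adjusted p of 0.372. Exons of SYVN1 overlap those of FAU and MIR6751 on the same strand and MRPL49 on the opposite strand. SEL1L, the adaptor of HRD1, had 47.0, 45.4 and 50.7 CPM with Azeliragon, against 57.2, 44.6 and 39.5 CPM with DMSO, a DMSO range that spanned the treated one. The channel-forming derlins DERL1 and DERL2 had log2 fold changes of 0.01 and -0.03. DERL3 was at 0.744 to 1.01 CPM with Azeliragon and 0.741 to 0.908 CPM with DMSO, on 230 reads over the 6 libraries, and its 95% interval of -0.53 to 0.76 spans differences in either direction larger than that of any called member. EDEM1 and EDEM2, which mark misfolded glycoproteins for disposal, were at -0.14 and -0.11, with edgeR adjusted p of 0.337 and 0.47. Of the other genes, WFS1, an ER membrane protein of calcium balance, was at 0.02, and SEC61B, a subunit of the translocation channel, at -0.12 (SE 0.08, edgeR adjusted p = 0.398) or -0.20 without DMSO a (adjusted p = 0.00602) and -0.056 without DMSO c.

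**Figure D3:**
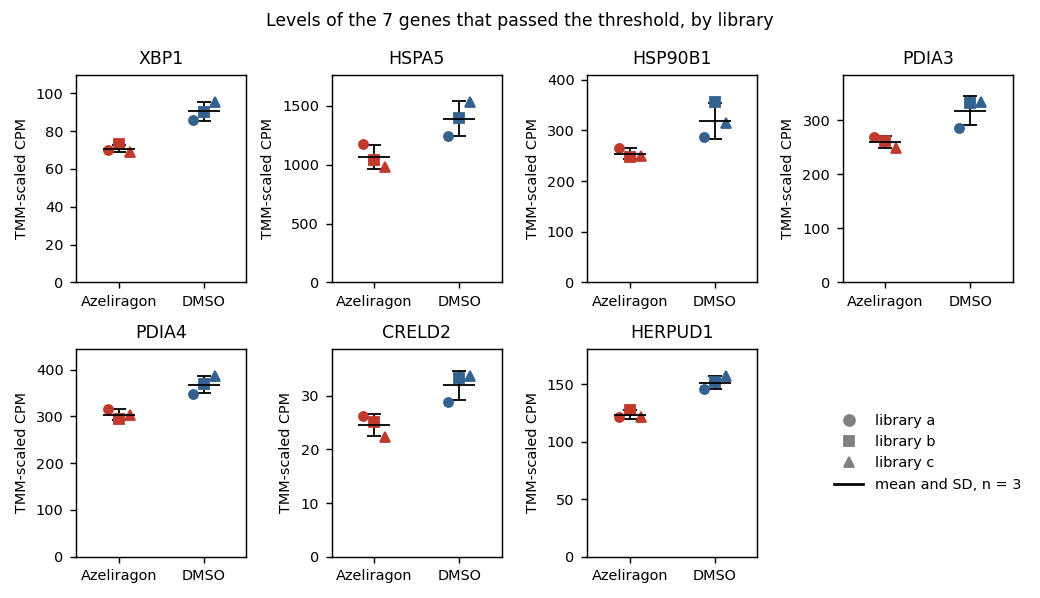
Level in each of the 6 libraries (TMM-scaled CPM, y axis, one panel per gene) for the 7 called genes, with the mean and SD of 3 libraries per group. No Azeliragon library reaches the lowest DMSO library in any panel, and DMSO a is the lowest DMSO library in all 7.

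**Figure D4:**
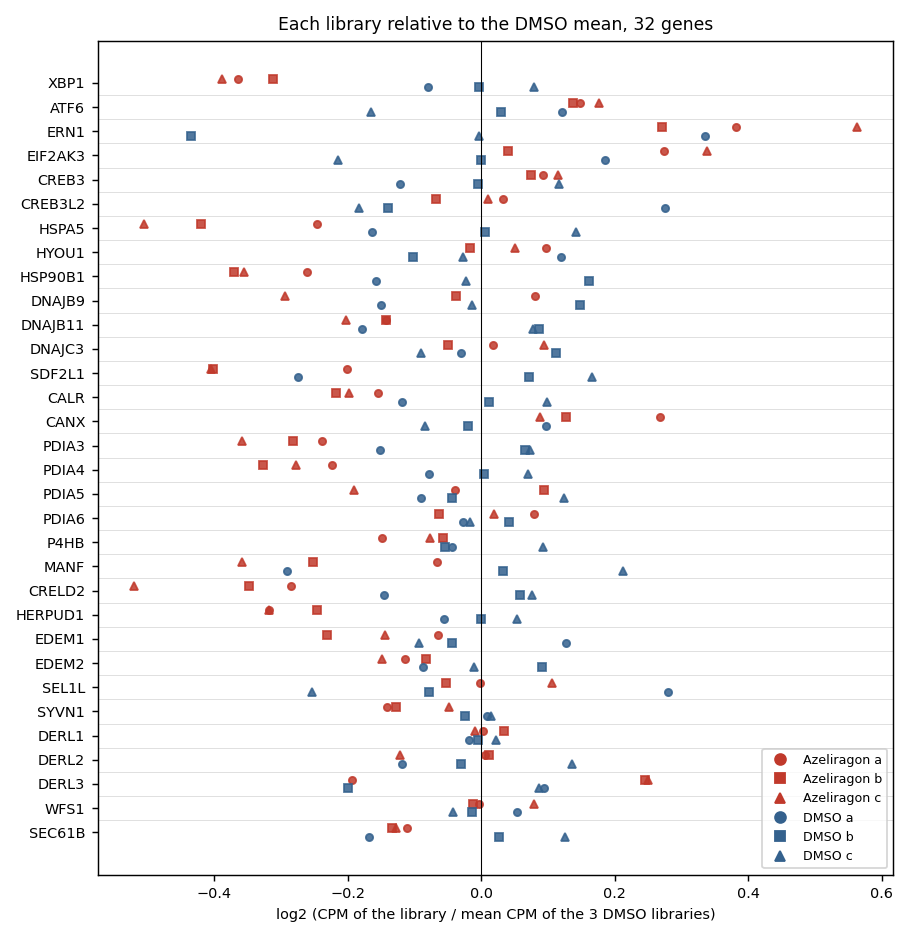
Log2 ratio of the CPM of each library to the mean CPM of the 3 DMSO libraries (x axis) for each of the 32 genes, with colour for the group and marker shape for the library letter. DMSO a lies between the other DMSO libraries and the Azeliragon libraries for the 7 called genes.

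Counted without a test, 10 of the 32 genes had all Azeliragon libraries below all DMSO libraries, against 13.2% of all tested genes. These were the 7 called genes with CALR, P4HB and SYVN1. Summed over the 32 genes, the level was 6525, 6173 and 6129.8 CPM in Azeliragon libraries a, b and c, against 6681, 6993 and 7268 CPM in DMSO libraries a, b and c. As a share of the TMM-scaled library size, this was 0.652%, 0.617% and 0.613% with Azeliragon, against 0.668%, 0.699% and 0.727% with DMSO. The 25 uncalled genes alone summed to 4284, 4107 and 4137 CPM with Azeliragon, against 4259.6, 4265 and 4414 CPM with DMSO, and these ranges overlapped. In bulk RNA, fewer cells that express a gene and less RNA per cell cannot be told apart.

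The genes differed widely in abundance. Divided by the length of all annotated exons of the gene merged, CALR was the most abundant member at 416 CPM per kb with Azeliragon and 474 with DMSO, followed by HSPA5 at 272 and 356 CPM per kb with Azeliragon and DMSO. CANX had 122 CPM per kb with Azeliragon and 109 with DMSO, and PDIA4 had 92.7 with Azeliragon and 112 with DMSO. Of the sensors, ATF6 had 9.001 CPM per kb with Azeliragon and 8.09 with DMSO, EIF2AK3 had 2.44 with Azeliragon and 2.09 with DMSO, and ERN1 had 1.55 with Azeliragon and 1.17 with DMSO. The lowest was DERL3, at 0.243 CPM per kb with Azeliragon and 0.224 with DMSO.

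Promoter elements and fold changes were set side by side as a description. Of the 10 members with an ERSE or ERSE-II, 5 were called lower (XBP1, HSPA5, HSP90B1, CRELD2 and HERPUD1), 7 lay below 0, and the median log2 fold change was -0.31 over a range of -0.39 to 0.16. Of the 19 members whose windows held neither, 1 was called lower (PDIA4), 12 lay below 0, and the median was -0.04 over a range of -0.28 to 0.41. Of the 3 members with no window, 1 was called lower (PDIA3). Over all tested genes, 3.53% were called lower and 50.9% lay below 0. The 34 genes outside the list that hold an element were not compared, and whether an element goes with the change was not tested. HYOU1, CANX and PDIA6 carry an element and were at 0.04, 0.16 and 0.01. The called members had a median length of the longest transcript of 2946 bases and a GC content of 46.0%, against 4079 bases and 48.8% for the uncalled members, 3099 bases and 56.4% for all genes called lower, and 3188 bases and 48.7% for all tested genes.

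A further 9 lists with 166 genes cover the neighbouring ER and stress pathways. They had been drawn up by function, with earlier results of these data known, and their counts stand against 3.53% of all tested genes called lower and 2.75% called higher. The first list is named for the PERK-ATF4-CHOP arm, the branch that lowers translation and drives amino acid and death genes. It also holds kinases other than PERK, such as EIF2AK4, and 3 of its 20 genes rose and 2 fell. PPP1R15A, which encodes the phosphatase subunit GADD34 that reverses the translation block, rose 1.70-fold to 436, 416 and 409.8 CPM with Azeliragon, against 234, 249 and 261 CPM with DMSO (log2 fold change 0.76, SE 0.06, edgeR adjusted p = 3.55e-05). DDIT4, a stress-induced inhibitor of mTORC1, fell 1.47-fold to 122, 121 and 127 CPM with Azeliragon, against 166, 169 and 207 CPM with DMSO (log2 fold change -0.55, SE 0.08, edgeR adjusted p = 0.00199). EIF2AK4, the amino acid sensor kinase GCN2, rose 1.35-fold to 135, 138 and 132 CPM with Azeliragon, against 108, 94.8 and 96.4 CPM with DMSO (log2 fold change 0.43, SE 0.07, edgeR adjusted p = 0.00268). All 3 separated the groups fully, and each was called in all 6 sets of 5 libraries. DDIT4 overlaps its antisense gene DDIT4-AS1. Without DMSO a, 4 genes of this list rose and 4 fell.

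Further ER chaperones and prolyl isomerases showed 3 of 22 genes lower and 0 higher with edgeR, DESeq2 and limma-voom alike, and 18 of the 22 lay below 0 (median log2 fold change -0.15, against 50.9% of all genes below 0, and at an unadjusted edgeR p under 0.05, 7 lower and 1 higher). SERPINH1, the collagen chaperone HSP47, fell 1.27-fold to 246, 243 and 244 CPM with Azeliragon, against 286, 307 and 339 CPM with DMSO (edgeR adjusted p = 0.0109). PPIC, an ER prolyl isomerase, fell 1.495-fold to 7.98, 8.96 and 8.08 CPM with Azeliragon, against 11.96, 11.8 and 13.6 CPM with DMSO (edgeR adjusted p = 0.00627), and CNPY4 fell as well (log2 fold change -0.52, SE 0.10, edgeR adjusted p = 0.0107). For all 3 the Azeliragon libraries lay below the DMSO libraries. PPIC and CNPY4 overlap genes on the opposite strand. The calls were lost without Azeliragon a for all 3, without Azeliragon c for CNPY4 and SERPINH1, and without Azeliragon b or DMSO b for SERPINH1. Without DMSO a, 8 of these genes were lower and 2 higher.

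In the other lists few genes were called, and in both directions. Among oxidoreductases, 2 of 14 tested genes rose and 0 fell with edgeR, DESeq2 and limma-voom alike. At an unadjusted p under 0.05, 3 rose with each tool, and 1 fell with edgeR and limma-voom but 0 with DESeq2. TXNDC5, a thioredoxin-domain isomerase, had 32.2, 47.4 and 46.2 CPM with Azeliragon, against 26.2, 23.3 and 26.7 CPM with DMSO (1.65-fold, edgeR adjusted p = 0.00608), and it shares exons with the read-through gene BLOC1S5-TXNDC5. QSOX1, a secreted sulfhydryl oxidase, had 1051, 1076 and 1067 CPM with Azeliragon, against 868, 866 and 867 CPM with DMSO (1.23-fold, edgeR adjusted p = 0.00654). All Azeliragon libraries lay above the DMSO libraries for both, although the QSOX1 call was lost without Azeliragon b, Azeliragon c or DMSO b. Of 24 genes of the translocon and signal recognition, 1 rose with edgeR and 2 with DESeq2 and with limma-voom. SSR3, a subunit of the translocon-associated complex, had 333, 316 and 305 CPM with Azeliragon, against 242, 243 and 235 CPM with DMSO (1.33-fold, edgeR adjusted p = 0.00171), and it was called in all 6 sets of 5 libraries.

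Of 21 further degradation factors, 1 fell, the mannosidase MAN1B1 (log2 fold change -0.26, SE 0.06, edgeR adjusted p = 0.0329). Of 9 tested sensor-processing factors and further ER-membrane transcription factors, 1 fell, CREB3L1, which had 65.9, 73.2 and 69.5 CPM with Azeliragon, against 80.4, 91.4 and 89.4 CPM with DMSO (1.25-fold lower, edgeR adjusted p = 0.0204). Its groups did not overlap. Of 17 tested cytosolic and mitochondrial heat shock proteins, 2 rose, the mitochondrial Hsp70 gene HSPA9 and the co-chaperone gene DNAJB6, each 1.16-fold (edgeR adjusted p = 0.047 and 0.0493). The calls of MAN1B1, HSPA9 and DNAJB6 were lost without any 1 library other than DMSO a, and that of CREB3L1 without any 1 of the Azeliragon libraries or DMSO b. Of 15 genes of the oligosaccharyltransferase and the lectin cycle, 0 were called by edgeR or limma-voom and 1 by DESeq2 (at an unadjusted edgeR p under 0.05, 1 higher and 1 lower). STT3A, a catalytic subunit, had the smallest p, with a log2 fold change of 0.19 and an edgeR adjusted p of 0.0727. Of 20 genes of ER export and KDEL retrieval, 0 were called by edgeR, DESeq2 or limma-voom (at an unadjusted edgeR p under 0.05, 2 higher and 1 lower), and the coat gene SEC23B had the smallest p, with a log2 fold change of 0.22 and an edgeR adjusted p of 0.0868.

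Leaving out DMSO a raised most of these counts. Without it, 4 further degradation factors were higher and 4 lower, 2 genes of the lectin cycle were higher and 2 lower, and 3 export genes were higher and 3 lower. In the translocon list 4 were higher and 4 lower, and among oxidoreductases 2 were higher and 1 lower. Among the sensor-processing factors 3 were lower, and of the heat shock proteins 3 were higher and 1 lower. In that fit 12.9% of all genes were called higher and 10.8% lower.

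**Figure D5:**
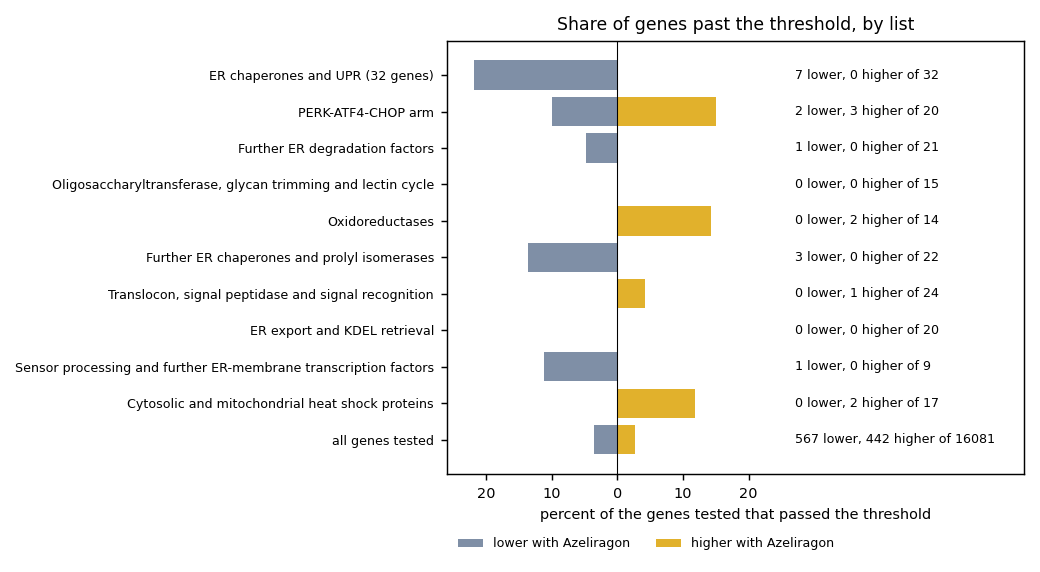
Percent of the tested genes called lower (left) and higher (right) with Azeliragon (x axis), by list, with the counts beside the bars. Rows are the 32 members, the 9 other lists and all tested genes. Of the members 21.9% were lower and 0 higher, against 3.53% lower and 2.75% higher of all tested genes. The members and lists were chosen with earlier results of these data known.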

How the data were processed

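Polyadenylated RNA of 6 libraries was measured. The authors deposited raw counts per gene as 1 table, with a column per library, and 0 columns were left unused. STAR 2.6.1d, featureCounts 1.5.0-p3, limma and GRCh38 are named, without their roles, per the submitters' processing notes. Neither strand setting nor annotation was given in the sources used here. Exons of further members, CREB3, DNAJB11 and PDIA5 among them, also overlap those of other genes. Of 58735 entries, 2 with date-like names (0% of counts) were left out, and for the 1741 entries that share a name the one with the higher total was read. Names were matched to GENCODE 29 for coordinates, length and GC content.

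From the counts, genes were kept with filterByExpr in edgeR 4.0.16 (R 4.3.3), scaled by TMM and tested by quasi-likelihood (glmQLFit, glmQLFTest) on treatment alone, with Benjamini-Hochberg adjustment over 16081 genes. The threshold was an adjusted p of 0.05. SE is the log2 fold change over the square root of F. The fit was tested on simulated data. Alternatives used other scaling, filters, DESeq2 1.42.0, limma-voom 3.58.1, a replicate block, removal of a length and GC trend, and each library left out. All 32 members are named, and at most 3 called genes of each other list, or the 1 with the smallest p. The members and lists were chosen with earlier results of these data known. At the lowest depth, 41455979 counts, 1 read is worth 0.0241 CPM.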

Additional observations from a re-analysis of the deposited data

How the results depend on the processing

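The 7 calls among the 32 members stayed at 7 with RLE scaling, library totals, the stricter filter, DESeq2 and limma-voom. With no filter on low counts, 1685 of 29132 genes were called in all, against 1009 of 16081. Of these 1685 genes, 787 were lower and 898 higher, with 8 members lower and 1 higher. With the length and GC trend removed, 1860 of 16081 genes were called, 839 lower and 1021 higher, with 8 members lower and 1 higher. With DMSO a left out as well, 3755 of 16508 genes were called, 1693 lower and 2062 higher. Among the members 13 were then lower and 3 higher. Leaving out 1 library at a time gave 445 to 3916 called genes, 0 to 12 members lower and 0 to 5 higher. Over all 16508 to 16601 genes tested, these fits called 270 to 1779 lower and 154 to 2137 higher.

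Libraries with the same letter did not deviate together (correlations 0.026, 0.023 and -0.039). The labels do not say whether the letters pair them, and 3 libraries per group cannot decide it. With a replicate block 5 members were called, all lower (without PDIA3 and CRELD2), and 908 of 16081 genes, 492 lower and 416 higher. With the block and the trend removed, 1796 of 16081 genes were called, 798 lower and 998 higher, with 8 members lower and 1 higher.

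Some uncalled members changed sign. CREB3L2 was at a log2 fold change of 0.0063 with limma-voom and 0.0068 with the block. With the trend removed, DNAJC3 was at -0.018, SEL1L at -0.044 and DERL1 at -0.045. Adding the block gave -0.017, -0.040 and -0.043 for these genes, and leaving out DMSO a instead gave DNAJC3 -0.076 and DERL1 -0.10. Leaving out 1 library gave ranges of -0.091 to 0.15 for CREB3L2, -0.0050 to 0.11 for HYOU1, -0.16 to 0.020 for DNAJB9, -0.021 to 0.081 for DNAJC3, -0.11 to 0.027 for PDIA5, -0.019 to 0.050 for PDIA6, -0.094 to 0.18 for SEL1L, -0.0023 to 0.021 for DERL1, -0.089 to 0.040 for DERL2 and -0.0090 to 0.050 for WFS1. The cause was not tested. Among the members, depth limits DERL3 most, with 230 reads over the 6 libraries together.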
